A study of Mus musculus with 8 samples.

Results

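The genes described here are 32 integrin chains, selectins and adhesion ligands of the mouse: 18 integrin alpha chains, 8 integrin beta chains, the ligands Icam1, Icam2 and Vcam1, the selectins Selp and Sele, and the selectin ligand Selplg. They were listed by symbol, with earlier results of these data known. All 32 were found among the 52459 genes of the bulk count table and among the 31053 genes of both single-cell matrices. Tumors of FC1242, a line of mouse pancreatic cancer cells of the KPC model, grown in the pancreas of C57BL/6 mice were set beside tumors of the same line in the liver. All groups received 100000 cells and were harvested after 3 weeks, and no other allele or agent is named. Bulk RNA-seq covered 3 tumors labelled primary (pancreas) and 3 labelled liver metastases, and CD45+ cells sorted from each site gave 1 single-cell library per site. The tumors come from 1 injected line, the labels do not give the route by which cells reached the liver, and they do not say how many mice gave the sorted cells.

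Integrins are cell-surface receptors made of 1 alpha and 1 beta chain, and the chains that pair decide which matrix protein or cell-surface ligand is bound. Chains with beta-1 or beta-4 hold epithelial and stromal cells to laminin and collagen, chains with alpha-v bind proteins that carry the amino acids arginine, glycine and aspartate, and chains with beta-2 or beta-7 serve leukocytes. Leukocytes leave the blood by rolling on selectins of activated endothelium and then holding to ICAM-1, ICAM-2 and VCAM-1 through integrins.

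The bulk libraries held 27481390 to 36743247 reads, and 16487 genes passed the filter on low counts. The single-cell matrices held 82083967 UMIs (pancreas) and 161890665 UMIs (liver) over 6794880 barcodes each, from which 2260 and 7533 cells were kept (median 12014.5 and 6749 UMIs), with 7 barcodes shared (a UMI, unique molecular identifier, counts 1 molecule). Cells scored as doublets, 17 and 85, were removed. Markers of liver tissue stood high in the liver tumors: 9 of 9 hepatocyte markers rose, with a summed level of 80.0 to 615 CPM (counts scaled to a common library total) in the pancreas tumors and 48207 to 103234 CPM in the liver tumors, and 6 of 6 Kupffer cell markers rose. Adrenal markers summed to 997 CPM in pancreas tumor replicate 1, against 25.0 CPM in the lowest pancreas tumor. The labels do not say whether replicates came from separate mice, so p-values measure the spread between these libraries only, and in bulk tissue fewer cells of a type cannot be told apart from less RNA per cell. The median log2 change of all tested genes was -0.07 with trimmed-mean (TMM) scaling and -0.52 with plain library totals, and directions below are relative to the former.

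Of the 32 members, 31 were tested in bulk (Itgad was below the filter), 12 were higher in the liver tumors, 3 were lower and 16 were not called (edgeR quasi-likelihood test, Benjamini-Hochberg adjusted p under 0.05 over all tested genes). Over all tested genes 16.7% were called higher and 6.26% lower, 23.0% in either direction. The median log2 change of the 31 was 0.41. Plain library totals gave 8 members higher and 9 lower. By role, 6 alpha chains rose and 2 fell of 17 tested, 2 beta chains rose and 1 fell of 8, and 4 of the 6 ligands and selectins rose. The members that rose were chains known from leukocytes (Itgal, Itgax, Itgb2, Itgb7, Itgae, Itga4, with Selplg), genes known from vessels (Selp, Sele, Icam2), Itga9 and Itga8. The members that fell, Itga2, Itga3 and Itgb4, are laminin and collagen receptor chains known from epithelia. Without liver tumor replicate 2, 7 members were called higher and 0 lower. The count of members lower was 5 without pancreas tumor replicate 2, and 1 without pancreas tumor replicate 3 or without liver tumor replicate 1.

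**Figure D1:**
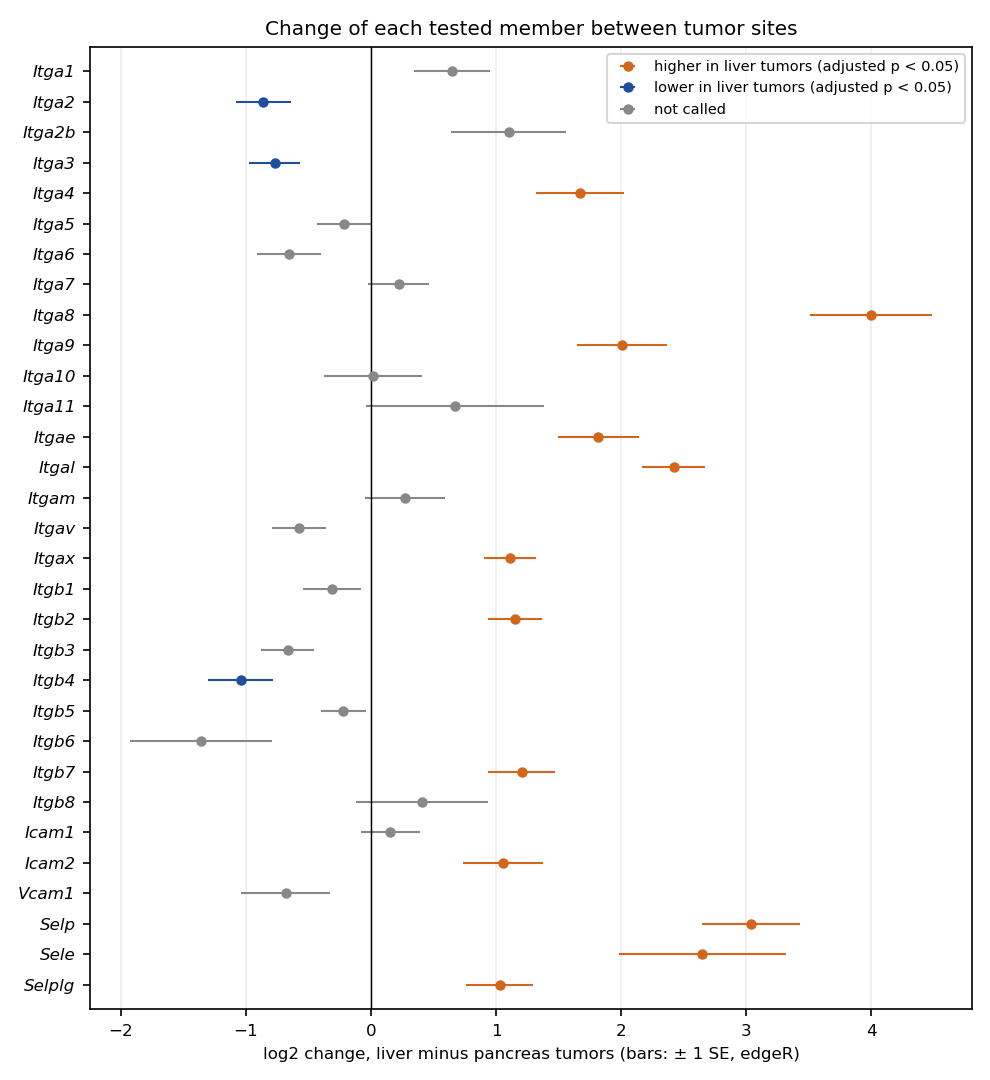
The change of each of the 31 tested members between sites, as log2 of liver over pancreas with 1 standard error on either side. Orange points are the 12 members called higher in the liver tumors, blue points the 3 called lower, and grey points the 16 not called.

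Levels between members were compared per transcript length, as the deposited FPKM. Itgb1, the common beta chain, had the highest level of all members, at 228 to 247 FPKM in the pancreas tumors and 170.2 to 223 in the liver tumors. Next came Itga6 (laminin receptor chain), at 62.3 to 73.04 FPKM in the pancreas tumors and 31.7 to 53.97 in the liver tumors, and Vcam1, at 35.4 to 93.2 FPKM in the pancreas tumors and 36.6 to 47.1 in the liver tumors. Itga3 and Itgb5 lay in the same range, with 49.2 to 55.9 FPKM in the pancreas tumors and 28.1 to 36.3 in the liver tumors for Itga3 and 39.6 to 51.2 FPKM in the pancreas tumors and 37.3 to 40.6 in the liver tumors for Itgb5. The range of Vcam1 overlapped those of Itga6 and Itgb5 at both sites. Itga6 lay above Itga3 and Itgb5 in the pancreas tumors and overlapped both in the liver tumors, and Itga3 overlapped Vcam1 and Itgb5 in the pancreas tumors and lay below both in the liver tumors. Members that rose were low in comparison: among them Itgb2 was the highest, at 4.24 to 6.30 FPKM in the pancreas tumors and 10.9 to 14.1 in the liver tumors, and Itga8, Selp and Sele did not pass 0.17 FPKM in any pancreas tumor.

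**Figure D2:**
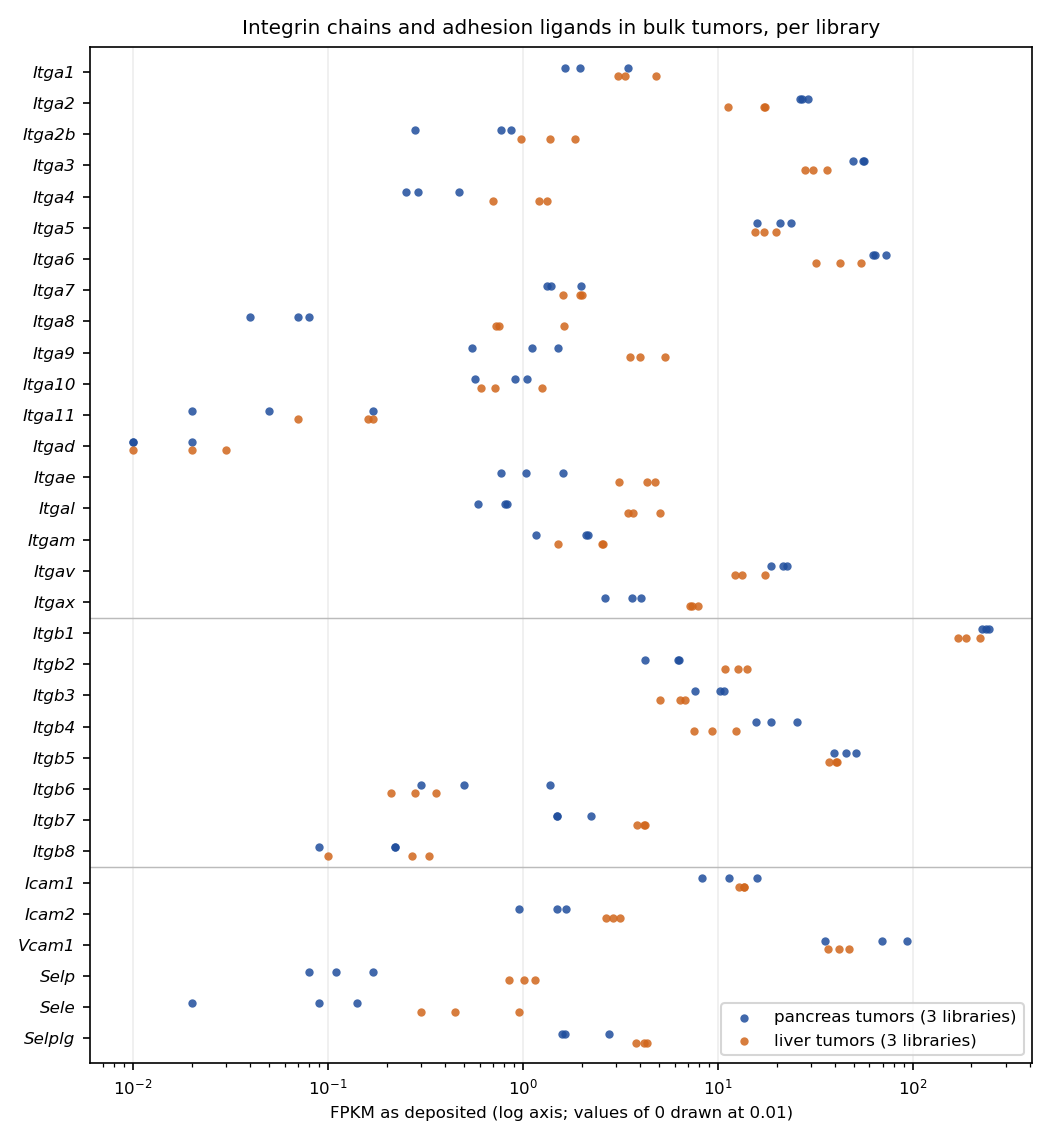
The deposited FPKM of each member in each of the 6 bulk libraries on a log axis, with alpha chains, beta chains, and ligands with selectins set apart by horizontal lines. Itgb1 lies to the right at 170 to 247 FPKM, and for Itgal, Itga8, Itga9 and Selp every orange point (liver) lies to the right of every blue point (pancreas).

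The beta-2 chain and its partners, receptors of leukocytes for ICAMs and for complement fragments, rose in bulk for 3 of the 4 chains tested. Itgal (chr7:127296260-127335138, GRCm38), the alpha chain of LFA-1, stood at 5.36, 3.85 and 5.60 CPM in the pancreas tumors and 23.98, 32.3 and 23.2 CPM in the liver tumors. All 3 liver tumors were above all 3 pancreas tumors (log2 change 2.42, SE 0.25, edgeR adjusted p = 0.000314). Itgax, the chain known as CD11c, stood at 19.5, 12.6 and 17.8 CPM in the pancreas tumors and 34.7, 37.1 and 35.99 CPM in the liver tumors (log2 change 1.11, SE 0.21, edgeR adjusted p = 0.0069). Itgb2 itself (chr10:77530252-77565708) stood at 19.2, 19.2 and 13.3 CPM in the pancreas tumors and 33.3, 41.9 and 39.5 CPM in the liver tumors (log2 change 1.15, SE 0.21, edgeR adjusted p = 0.00648), again without overlap. Across all tested genes, 23.8% had every liver tumor above every pancreas tumor. Itgam, the chain known as CD11b, overlapped between sites at 13.5, 13.7 and 7.63 CPM in the pancreas tumors and 9.63, 15.98 and 16.4 CPM in the liver tumors and was not called (log2 change 0.27, SE 0.32, below 0 with plain library totals). Itgad, the remaining partner, did not pass 0.14 CPM in any library. Beside these values, 11 of 15 macrophage markers and 9 of 11 dendritic cell markers rose in the liver tumors, none at 0 at a site. Dendritic sums were 28.2 to 48.9 CPM (pancreas) and 90.3 to 100.3 CPM (liver). Macrophage sums were 758 to 1815 CPM (pancreas) and 7771 to 16234 CPM (liver). The median log2 change of the macrophage list was 1.17, so its sums are not read as the rise of a typical marker. In liver tumors 1, 2 and 3 they stood at 16234, 13120 and 7771 CPM, in the order of the hepatocyte sums (103234, 92791.5 and 48207 CPM). The part of hepatocyte RNA in the macrophage sums was not tested. The neutrophil list had 2 of 10 higher (24.9 to 50.4 against 48.5 to 80.5 CPM) and the T cell list 0 of 10 (20.1 to 32.8 against 30.1 to 48.7 CPM). Their part in the rise of the beta-2 chains was not tested.

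Among single cells, 5 classes had at least 50 cells in both libraries and were named by rebuilt markers: macrophage-like (1497 pancreas and 3062 liver cells), neutrophil-like (221 and 510), dendritic cell-like (64 and 133), T cell-like (121 and 149) and epithelial-like cells (320 and 3494). The last are not immune cells by their markers, although the sort was for CD45: Ptprc, the gene for CD45, stood at 8.51 and 15.2 CPM there and at 279 to 1210 CPM in the other 4 classes. Levels are UMIs summed over a class and scaled to CPM of the class, with 95% intervals for counting error only, and with 1 library per site no test was possible. Itgb2 was found in all 4 leukocyte classes, with 256 and 280.2 CPM (pancreas and liver) in macrophage-like, 217 and 237 in neutrophil-like, 202 and 151 in dendritic-like and 171 and 145 in T cell-like cells, against 3.55 and 11.6 in epithelial-like cells. Its alpha partners divided the leukocytes. Itgam stood at 549.5 and 371 CPM in neutrophil-like and 406 and 345 in macrophage-like cells, with intervals apart in the pancreas library alone, and at 14.9 and 15.5 in T cell-like cells. Itgax stood at 166 and 172 CPM in dendritic-like cells, apart from the next class (macrophage-like, 143 and 77.5) in the liver library alone. Itgal stood at 204 and 130.2 CPM in T cell-like cells, apart from the next class (neutrophil-like, 137 and 112) in the pancreas library alone. Itgam shares 68.7% of its exon bases with the gene model Gm49368 on the same strand (506 UMIs beside 22973 for Itgam), so reads of the shared exons may be missing from its single-cell count.

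**Figure D3:**
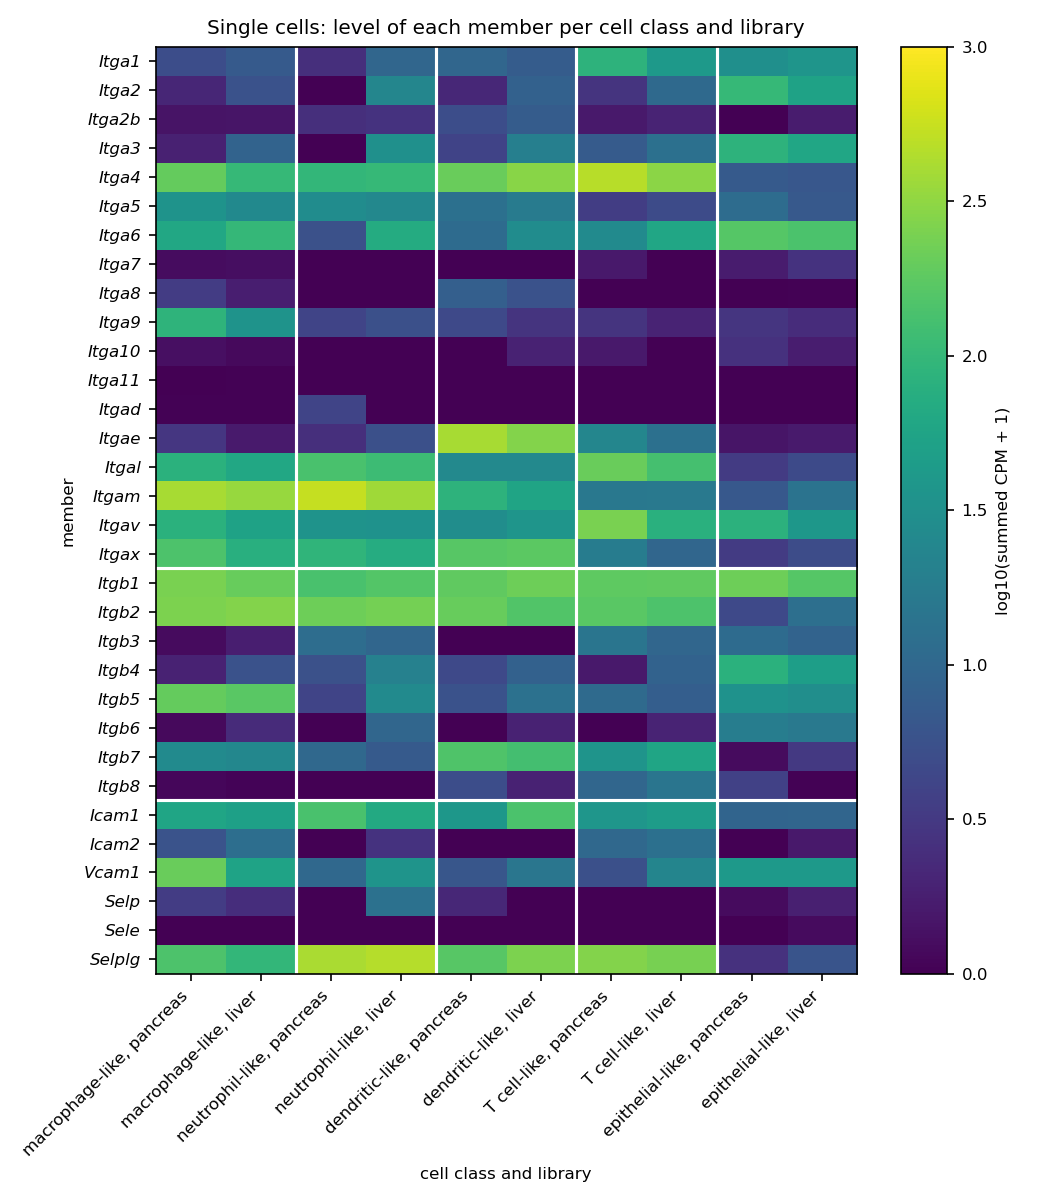
The level of each of the 32 members in 5 cell classes of both single-cell libraries, as log10 of summed CPM plus 1, from dark (0) to yellow. Itgae and Itgb7 are brightest in dendritic-like cells, Selplg in neutrophil-like cells, and Itga2, Itga3, Itga6 and Itgb4 in epithelial-like cells.

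The mucosal and lymphoid chains Itga4, Itgae and Itgb7 all rose in the liver tumors. Itga4 (chr2:79255426-79333123), which with beta-1 binds VCAM-1 and with beta-7 binds MAdCAM-1, stood at 4.06, 6.58 and 3.53 CPM in the pancreas tumors and 9.81, 18.1 and 17.1 CPM in the liver tumors (log2 change 1.67, SE 0.35, edgeR adjusted p = 0.0112), without overlap, and lost the call without liver tumor replicate 2. Itgae, the alpha-E chain that binds E-cadherin, stood at 7.35, 4.75 and 3.61 CPM in the pancreas tumors and 14.3, 21.2 and 20.04 CPM in the liver tumors (log2 change 1.82, SE 0.32, edgeR adjusted p = 0.00507). Itgb7, its partner, stood at 4.13, 4.09 and 6.27 CPM in the pancreas tumors and 11.6, 11.2 and 10.7 CPM in the liver tumors (log2 change 1.21, SE 0.27, edgeR adjusted p = 0.0147). The call of Itgb7 was lost without liver tumor replicate 1 or 2. Of the B cell markers 6 of 7 rose beside these chains (4.20 to 5.16 against 11.5 to 18.5 CPM), with the dendritic cell markers given above. Of the tested T cell markers 0 of 10 rose, of the NK cell markers 1 of 6 and of the plasma cell markers 2 of 4. The part of these cells in the rise of the 3 chains was not tested. In single cells 680 of 764 Itgae UMIs of the 5 classes (89.0%) in the pancreas library and 297 of 355 (83.7%) in the liver library were in dendritic-like cells: 403 CPM (95% interval 373 to 434, 680 UMIs) in the pancreas library and 277 CPM (95% interval 246 to 310, 297 UMIs) in the liver library, while T cell-like cells, the next class, had 22.9 and 11.7 CPM. Within this class Itgae was higher in the cluster led by Xcr1, Wdfy4 and Ccl17, than in that led by Ccr7, Fscn1 and Ccl22 (400.5 against 12.04 CPM over both libraries). The second cluster had the higher Itga4 (768 against 164 CPM), the higher Selplg (559.9 against 148 CPM) and the lower Itgb2 (18.1 against 205 CPM). It held 4 pancreas and 41 liver cells, against 60 and 92 for the first, so the 2 libraries drew this class from clusters in unlike shares.

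Itga4 in T cell-like cells stood at 479 CPM (95% interval 446 to 514, 774 UMIs) in the pancreas library and 303 CPM (95% interval 270.4 to 339, 312 UMIs) in the liver library. Dendritic-like cells were below in the pancreas library, at 203 CPM (95% interval 182 to 225, 342 UMIs), and overlapped in the liver library, at 289.8 CPM (95% interval 258 to 324, 311 UMIs). The T cell-like clusters varied around that. A cluster of 28 pancreas cells and 1 liver cell, led by Ccl5, Ctla4 and Cd8a, had 764 CPM of Itga4 and 873 CPM of Itgav. The cluster of 11 pancreas and 42 liver cells, led by Trbc2, Ms4a4b and Ltb, had the highest Itgal (307 CPM), Itgb7 (214 CPM) and Itgae (76.9 CPM) of these clusters. Itga1, the collagen receptor chain known from tissue-resident T cells, reached 179 CPM in a cluster of 45 pancreas cells and 1 liver cell. The clusters with 1 liver cell come almost wholly from 1 library, so a cell state and a library cannot be told apart in them. Of the T cell-like cells, the clusters with 45 and 28 pancreas cells held most of the pancreas cells. Those with 59 and 42 liver cells held most of the liver cells. Cd8a was among the leading genes of the clusters with 45, 28 and 59 cells, and of a cluster of 25 liver cells.

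Of the laminin and collagen receptor chains known from epithelia, Itga2, Itga3 and Itgb4 fell in the liver tumors, and Itga6 did not pass the test. Itga2, the alpha chain of a collagen receptor, stood at 189, 207 and 197 CPM in the pancreas tumors and 80.3, 120.3 and 126 CPM in the liver tumors (log2 change -0.86, SE 0.22, edgeR adjusted p = 0.0252). Itga3, the alpha chain of a laminin-332 receptor, stood at 317, 281 and 327 CPM in the pancreas tumors and 160.3, 171 and 210.4 CPM in the liver tumors (log2 change -0.77, SE 0.20, edgeR adjusted p = 0.0278). Itgb4 (chr11:115974709-116008412), the beta chain of hemidesmosomes, stood at 131, 179 and 113 CPM in the pancreas tumors and 53.3, 64.05 and 88.6 CPM in the liver tumors (log2 change -1.04, SE 0.26, edgeR adjusted p = 0.024). In all 3 the groups did not overlap, and 20.2% of tested genes had every liver tumor below every pancreas tumor. The calls of Itga2 and Itga3 were also lost without pancreas tumor replicate 1 or 3, and those of Itga3 and Itgb4 without liver tumor replicate 1. Itga6, the partner of Itgb4, was likewise below in every liver tumor at 661, 562 and 592 CPM in the pancreas tumors and 286, 372 and 494 CPM in the liver tumors, but did not pass the test (log2 change -0.65, SE 0.26, edgeR adjusted p = 0.105, and 0.0237 with plain library totals). Itgb1 was also below in every liver tumor and not called (log2 change -0.31, SE 0.23, edgeR adjusted p = 0.375). Epithelial markers had 0 higher and 2 lower of 12, with a median log2 change of -0.997, none at 0, and sums of 4448 to 9819 CPM in the pancreas tumors against 2838 to 3388 CPM in the liver tumors. Their part in the fall of the 3 chains was not tested.

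In single cells these chains were highest in epithelial-like cells of both libraries. Itga6 stood there at 162 and 141 CPM (pancreas and liver), Itga2 at 100.5 and 52.8, Itga3 at 86.3 and 58.4 and Itgb4 at 81.3 and 46.8, each lower in the liver library, none past 2-fold. The 2 libraries drew the class from different clusters: the 2 clusters with most liver cells held 1923 of the 3494 liver cells and 19 of the 320 pancreas cells. Within cluster 10 (61 and 370 cells) Itga2 stood at 182 (164 to 201) against 111 (105 to 118) CPM, Itga3 at 136 (121 to 152) against 109.7 (103 to 116) CPM and Itgb4 at 138 (123 to 155) against 90.9 (85.3 to 96.9) CPM (pancreas against liver, with 95% intervals), with intervals apart, and Itga6 stood at 258 (237 to 279.9) against 287 (277 to 298) CPM, with intervals that overlapped. Within clusters 8 and 11 the intervals of all 4 chains overlapped, and within cluster 6 those of 3, Itga6 being lower in the liver library (120.5 (93.9 to 152) against 78.8 (68.4 to 90.3) CPM). Itgb6, the beta chain of an epithelial receptor that activates TGF-beta, stood at 17.5 and 15.5 CPM. Epithelial-like clusters differed more than the sites did: Itga6 ran from 28.6 to 282 CPM over 6 clusters and Itga2 from 10.4 to 123. The cluster with the highest level of both had a median of 26975 UMIs per cell, the deepest of the class. In the remaining alpha chains of this kind, Itga1 was not called in bulk at 30.6, 64.5 and 37.5 against 62.1, 87.4 and 57.96 CPM (log2 change 0.65, SE 0.30, edgeR adjusted p = 0.164, 0.0479 with a replicate block and 0.0123 without pancreas tumor replicate 2), and Itga7, Itga10 and Itga11 were low, at most 16.5 CPM, with changes of 0.22 (SE 0.24), 0.01 (SE 0.39) and 0.67 (SE 0.71). Itga10 changed sign in several fits, and plain library totals put Itga7 and Itga10 below 0.

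Receptors for fibronectin, vitronectin and related ligands moved unevenly. Itga8 (chr2:12106632-12301922), known from stellate cells and smooth muscle, had the largest rise of all members, from 0.590, 0.277 and 0.522 CPM in the pancreas tumors to 5.50, 11.7 and 5.48 CPM in the liver tumors (log2 change 3.998, SE 0.49, edgeR adjusted p = 0.000709). Itga9, whose partner is beta-1, stood at 11.7, 8.56 and 4.30 CPM in the pancreas tumors and 30.8, 40.3 and 27.6 CPM in the liver tumors (log2 change 2.01, SE 0.36, edgeR adjusted p = 0.00556). In both genes every liver tumor was above every pancreas tumor, and both calls held without each library in turn. Beside Itga8, 7 of 9 fibroblast or stellate markers and 4 of 5 smooth muscle markers rose, none at 0, from sums of 373 to 998 and 52.5 to 94.6 CPM to sums of 1492 to 1930 and 139.7 to 221 CPM. Their part in the rise of Itga8 was not tested. In kept cells Itga8 was scarce, with 53 and 28 UMIs (pancreas and liver) in macrophage-like cells, 12 and 5 in dendritic-like cells, and 0 and 1 in the few fibroblast-like cells.

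The alpha-v chain Itgav and its partners Itgb3, Itgb5, Itgb6 and Itgb8 were not called by the edgeR test with TMM scaling. Itgav stood at 231, 202 and 249.6 CPM in the pancreas tumors and 131, 139 and 189 CPM in the liver tumors, with every liver tumor below every pancreas tumor (log2 change -0.57, SE 0.22, edgeR adjusted p = 0.0941). Itgb3, which pairs with alpha-v and with the platelet chain alpha-IIb, was also below in every liver tumor (60.5, 44.9 and 64.7 against 29.6, 36.9 and 40.7 CPM) and was not called (log2 change -0.67, SE 0.21, edgeR adjusted p = 0.0542). DESeq2 called Itgb3 lower (adjusted p = 0.0389), as did edgeR without the filter on low counts (adjusted p = 0.0457) and without pancreas tumor replicate 2 (adjusted p = 0.0135). Plain library totals called Itgav, Itgb3, Itgb5 and Itgb6 lower, and Itgb6 was also called lower without pancreas tumor replicate 1 (edgeR adjusted p = 0.04). Itgb5, Itgb6, Itgb8 and the fibronectin receptor chain Itga5 overlapped between sites, with log2 changes of -0.22 (SE 0.18), -1.36 (SE 0.56), 0.41 (SE 0.53) and -0.22 (SE 0.21), of which Itgb8 was below 0 with plain library totals. Itga2b, the platelet chain, was above in every liver tumor (4.77, 1.52 and 4.30 against 10.1, 7.34 and 5.45 CPM) and not called (edgeR adjusted p = 0.121), while 0 of 2 tested platelet markers were called (sums of 1.30 to 1.89 against 1.74 to 2.55 CPM). In single cells Itgb5 was highest in macrophage-like cells (196 and 171 CPM), where Itga5 stood at 33.8 and 25.7 CPM beside 27.7 and 24.4 in neutrophil-like cells, and Itgav was highest in T cell-like cells (248 and 78.7 CPM). Itgav was 3.15-fold lower in T cell-like and 2.19-fold lower in epithelial-like cells of the liver library (83.7 against 38.2 CPM in the latter), classes whose clusters differed between the libraries. Within epithelial-like clusters Itgav stood at 138 (123 to 155) against 69.2 (64.3 to 74.4) CPM in cluster 10 and 58.5 (40.5 to 81.8) against 32.7 (26.2 to 40.4) CPM in cluster 6, and at 15.2 (8.29 to 25.4) against 11.99 (7.97 to 17.3) CPM in cluster 8 and 12.7 (4.12 to 29.6) against 12.9 (9.14 to 17.7) CPM in cluster 11, where the intervals overlapped. Barcodes with under 100 UMIs of the liver library had 45.4 CPM of Itgav, above the epithelial-like class and its clusters 6, 8 and 11 in that library. The 14 fibroblast-like cells of the pancreas library, too few for a class, held 299 UMIs of Itgb1, 113 of Itgav, 112 of Vcam1, 90 of Itga5 and 48 of Itgb8.

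The endothelial selectins rose while the level of Icam1 and Vcam1 did not pass the test. Selp (chr1:164115264-164150026), the P-selectin of endothelium and platelets, stood at 0.738, 0.485 and 0.373 CPM in the pancreas tumors and 3.74, 4.98 and 4.53 CPM in the liver tumors (log2 change 3.04, SE 0.39, edgeR adjusted p = 0.00095). Sele (chr1:164048234-164057677), the E-selectin of activated endothelium, lies next to it on chromosome 1 and stood at 0.418, 0.0693 and 0.274 CPM in the pancreas tumors and 0.880, 1.26 and 2.80 CPM in the liver tumors (log2 change 2.65, SE 0.67, edgeR adjusted p = 0.0242). Neither overlapped between sites, and the call of Sele was lost without pancreas tumor replicate 3 or liver tumor replicate 2 or 3. Icam2, a ligand of LFA-1 on resting endothelium, stood at 3.20, 1.80 and 2.91 CPM in the pancreas tumors and 5.50, 5.84 and 5.15 CPM in the liver tumors (log2 change 1.06, SE 0.32, edgeR adjusted p = 0.0488), a call that was lost with a replicate block and without each library in turn except pancreas tumor replicate 2. Endothelial markers had 7 of 9 higher, from sums of 103 to 131 CPM to sums of 282 to 433 CPM, with Clec4g, a marker of liver sinusoids, at 0 in the pancreas tumors; their part in the rise of Selp, Sele and Icam2 was not tested. Selplg, the ligand of P-selectin on leukocytes, stood at 7.03, 11.7 and 6.94 CPM in the pancreas tumors and 16.2, 18.1 and 18.1 CPM in the liver tumors (log2 change 1.03, SE 0.27, edgeR adjusted p = 0.0273) and lost the call without each library in turn except pancreas tumor replicate 2.

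Icam1, the inducible ligand of the beta-2 integrins, did not pass the test, at 49.9, 69.6 and 36.9 CPM in the pancreas tumors and 59.3, 58.1 and 56.7 CPM in the liver tumors (log2 change 0.16, SE 0.24, edgeR adjusted p = 0.674; below 0 with plain library totals and without pancreas tumor replicate 3). Vcam1 varied widely among the pancreas tumors, at 622, 314 and 847 CPM in the pancreas tumors and 325, 363 and 424 CPM in the liver tumors (log2 change -0.68, SE 0.36, edgeR adjusted p = 0.204). Pancreas tumor replicate 2 lay below all liver tumors, and without it Vcam1 was called lower in the liver tumors (edgeR adjusted p = 0.018), as with plain library totals (edgeR adjusted p = 0.0451). In single cells Selplg was highest in neutrophil-like cells (417 and 464 CPM). Icam2 had 121 and 435 UMIs in the 5 classes of the pancreas and liver libraries. No class was endothelial-like, and Sele had 0 UMIs in the 5 classes of the pancreas library and 6 in those of the liver library, where a count of 0 allows up to 3 UMIs.

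The 250 bases before the start of Sele, Selp, Icam1 and Itgax are shown because the first 2 rose together, Icam1 is the inducible ligand that did not pass the test, and Itgax is a leukocyte chain that rose. The sequences are RefSeq's on GRCm38.p6, plus strand, 5′ to 3′. Capitals mark matches on either strand to GGNNNTTCC (letters shared by many NF-kappaB sites), TTCNNNGAA (letters shared by many STAT sites) and TGACTCA (AP-1).
Sele, chr1:164047984-164048233: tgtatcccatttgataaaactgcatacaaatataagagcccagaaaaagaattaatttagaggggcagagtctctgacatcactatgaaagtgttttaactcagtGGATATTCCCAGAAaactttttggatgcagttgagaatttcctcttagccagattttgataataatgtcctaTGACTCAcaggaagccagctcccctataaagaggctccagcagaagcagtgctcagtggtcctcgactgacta
Selp, chr1:164115014-164115263: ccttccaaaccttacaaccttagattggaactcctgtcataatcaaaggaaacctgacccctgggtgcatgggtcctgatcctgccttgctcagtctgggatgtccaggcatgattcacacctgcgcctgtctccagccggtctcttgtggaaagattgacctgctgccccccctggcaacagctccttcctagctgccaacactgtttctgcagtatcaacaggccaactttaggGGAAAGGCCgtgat
Icam1, chr9:21015690-21015939: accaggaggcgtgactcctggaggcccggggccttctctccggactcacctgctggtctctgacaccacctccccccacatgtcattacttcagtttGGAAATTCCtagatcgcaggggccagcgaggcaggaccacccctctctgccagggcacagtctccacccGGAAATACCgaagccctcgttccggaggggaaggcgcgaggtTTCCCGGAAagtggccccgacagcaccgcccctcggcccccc
Itgax, chr7:128129300-128129549: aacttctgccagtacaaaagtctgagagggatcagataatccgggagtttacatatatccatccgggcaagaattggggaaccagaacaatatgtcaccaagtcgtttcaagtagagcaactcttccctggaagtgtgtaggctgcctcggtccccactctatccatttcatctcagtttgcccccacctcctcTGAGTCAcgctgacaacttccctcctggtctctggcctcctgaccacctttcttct
Sele holds all 3: GGNNNTTCC begins 145 bases before the start, TTCNNNGAA begins 140 bases before it and overlaps the first, and TGACTCA begins 73 bases before it. Icam1 holds GGNNNTTCC at 153 and 84 bases and TTCNNNGAA at 42 bases before the start. Selp holds GGNNNTTCC at 14 bases before the start, and Itgax holds TGACTCA at 56 bases before the start. Of all 32851 promoters in the table, 15.7% hold GGNNNTTCC, 7.02% TTCNNNGAA and 4.46% TGACTCA in these 250 bases. Of the 21 members with an entry, 5 hold the first (Icam1, Itga5, Itgb1, Sele and Selp), 3 the second (Icam1, Itga10 and Sele) and 2 the third (Itgax and Sele). A match is a description of letters and not a site in use. Itga6, Itga7, Itgad, Itgae, Itgal, Itgb2, Itgb3, Itgb4, Icam2, Vcam1 and Selplg had no entry.

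Both chains of a pair must be present for a receptor, so each of 24 known pairs was given the level of its lower chain in each class. At a limit of 50 CPM, macrophage-like cells held 8 pairs in the pancreas library and 7 in the liver library, dendritic-like cells 5 and 5, neutrophil-like cells 4 and 5, T cell-like cells 4 and 5, and epithelial-like cells 5 and 3. Itga4 with Itgb1 passed in the 4 leukocyte classes of both libraries, at 196 and 102 CPM in macrophage-like and 95.4 and 102 CPM in neutrophil-like cells. Itgam with Itgb2 was the highest pair of macrophage-like (256 and 280.2 CPM) and neutrophil-like cells (217 and 237 CPM). Itgal with Itgb2 stood at 171 and 130.2 CPM in T cell-like cells. Itgae with Itgb7 passed in dendritic-like cells alone among the 5 classes (147 and 126 CPM). In epithelial-like cells Itga6 with Itgb1 stood at 162 and 141 CPM and Itga6 with Itgb4 at 81.3 and 46.8 CPM. The alpha chain was the lower of the 2 in 34 of the 51 cases past the limit. In 4 of the 51 cases a chain was at or below its level in barcodes with under 100 UMIs of the same library, so these are not read as pairs of the class: Itga6 in T cell-like and neutrophil-like cells of the liver library (59.3 and 68.97 against 88.2 CPM), and Itgam in dendritic-like cells of both libraries (85.3 and 55.9 against 93.95 and 84.6 CPM). This comparison used the values without their intervals, and several cases that were kept lay close above the low-count barcodes in the liver library. Itgb1 stood at 155 against 141 CPM in neutrophil-like and 159 against 141 CPM in epithelial-like cells. Itga3 stood at 58.4 against 48.4 CPM in epithelial-like cells. In macrophage-like cells Itga6 stood at 98.2 against 88.2 CPM and Itgav at 52.1 against 45.4 CPM. UMIs do not show that the proteins pair. Levels were summed over a class, so the chains of a pair need not lie in the same cells. In the dendritic-like cluster led by Ccr7, Itga4 stood at 768 CPM and Itgb7 at 12.04 CPM.

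**Figure D4:**
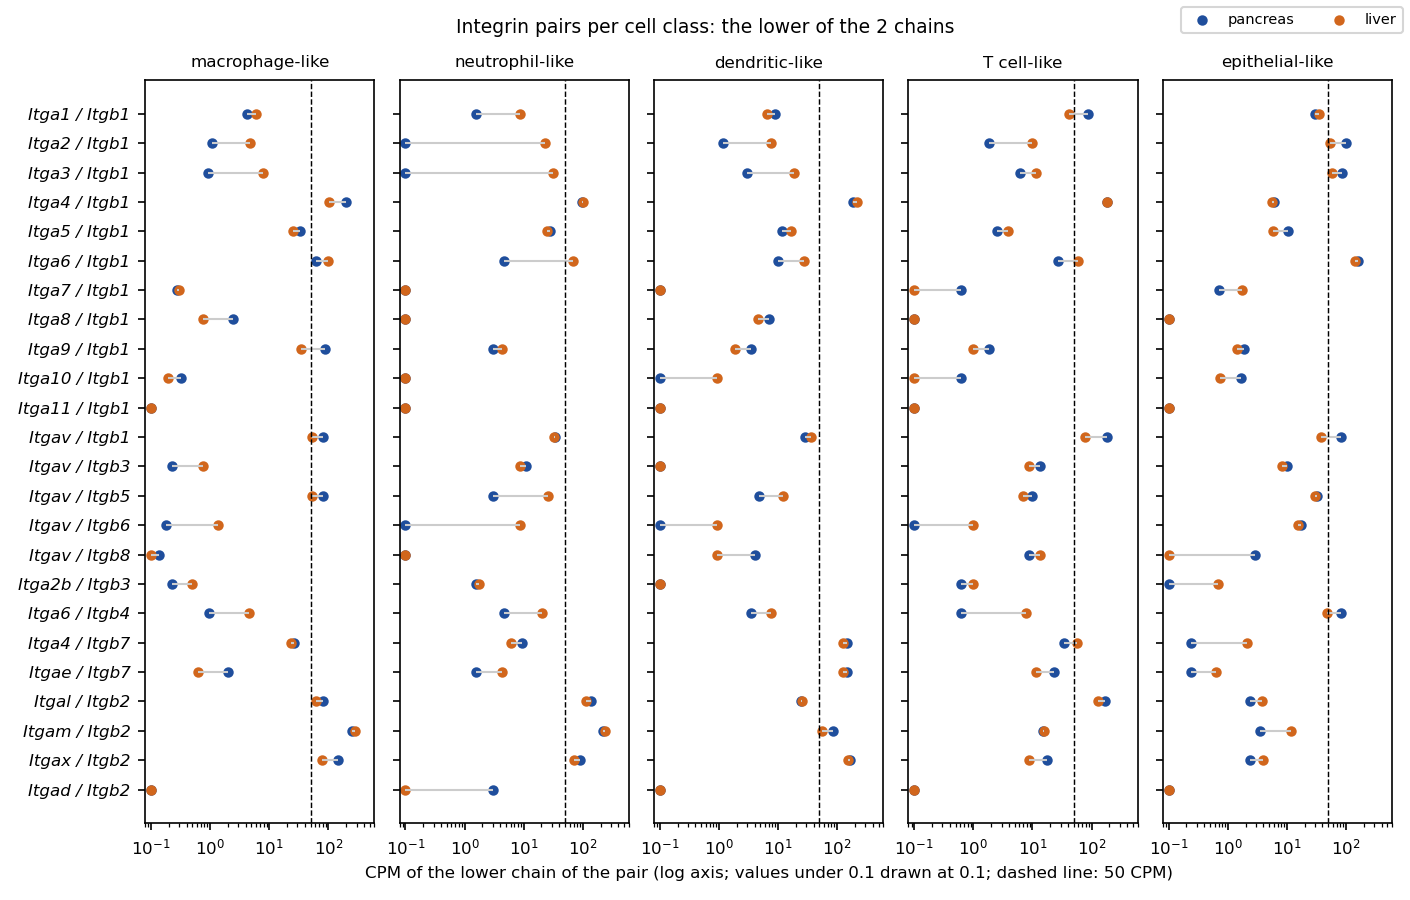
The CPM of the lower chain of each of 24 integrin pairs in 5 cell classes on a log axis, with blue points for the pancreas library, orange points for the liver library and a dashed line at 50 CPM. Itgam with Itgb2 lies past the line in macrophage-like and neutrophil-like cells of both libraries, and Itgae with Itgb7 in dendritic-like cells.

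Between the single-cell libraries, a level was set apart where it differed at least 2-fold with intervals that did not overlap, among members with at least 20 UMIs. Macrophage-like cells had 5 members higher and 4 lower in the liver library of 26 (10.1% and 8.65% over all genes), neutrophil-like cells 5 and 1 of 16 (11.6% and 7.25%), epithelial-like cells 4 and 1 of 25 (4.23% and 5.64%), dendritic-like cells 3 and 0 of 17 (3.59% and 2.26%) and T cell-like cells 2 and 2 of 19 (2.82% and 2.17%). Chains that are highest in epithelial-like cells made up 4 of the 5 rises in macrophage-like cells (Itga2, Itga3, Itgb4 and Itgb6), 3 of 5 in neutrophil-like cells (Itga2, Itga3 and Itga6), 2 of 3 in dendritic-like cells (Itga3 and Itga6) and 1 of 2 in T cell-like cells (Itga6). Itga3 stood at 0.905 and 7.92 CPM (pancreas and liver) in macrophage-like cells. In neutrophil-like cells it stood at 0 and 31.4 CPM, at least 6.81-fold higher with 3 UMIs taken for 0. In barcodes with under 100 UMIs, which hold free RNA, the same chains were higher in the liver library too: Itga3 at 7.65 and 48.4, Itgb4 at 8.74 and 39.8 and Itga6 at 35.3 and 88.2 CPM (pancreas and liver). Krt8, a keratin, went from 131 to 1179 CPM in neutrophil-like cells and from 32.9 to 256 CPM in macrophage-like cells. The part of free RNA in these rises was not tested. The 4 rises in epithelial-like cells were of leukocyte genes, Itgb2 (3.55 against 11.6 CPM), Itgam, Itgb7 and Selplg.

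Among levels with over 1000 UMIs in both libraries, the widest gap was that of Vcam1 in macrophage-like cells, 205 CPM (95% interval 199 to 211, 4523 UMIs) in the pancreas library and 54.4 CPM (95% interval 52.01 to 56.8, 1972 UMIs) in the liver library, 3.76-fold lower. The 2 libraries drew this class from different clusters. Cluster 4 (led by Rgs1, Thbs1 and Runx3) and cluster 9 (Cxcl9, Ccl8 and H2-Aa) held 733 and 386 of the 1497 pancreas cells. Cluster 0 (Arg1, Pf4 and Ccl2) and cluster 3 (C1qa, Cx3cr1 and Ccr2) held 1291 and 750 of the 3062 liver cells. Vcam1 was 328 CPM in cluster 4, 150.3 in cluster 9, 81.5 in cluster 3 and 52.3 in cluster 0. Within the clusters that had at least 50 cells of both libraries, Vcam1 stood at 153 (144 to 163) against 125 (102 to 151) CPM (pancreas against liver, with 95% intervals) in cluster 9, 12.3 (7.95 to 18.1) against 71.1 (56.3 to 88.6) CPM in cluster 13 and 9.13 (4.86 to 15.6) against 16.3 (12.8 to 20.6) CPM in cluster 7. Within cluster 13 Vcam1 was thus higher in the liver library, the opposite direction to the class as a whole, and within clusters 7 and 9 the intervals of the libraries overlapped.

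Itga9 was 2.56-fold lower in macrophage-like cells of the liver library (87.5 against 34.1 CPM), the opposite direction to its bulk change. It was also lower within cluster 9, at 141 (133 to 150.2) against 37.8 (25.8 to 53.3) CPM, and within cluster 7, at 70.2 (57.1 to 85.4) against 28.5 (23.7 to 34.03) CPM. Within cluster 13 the intervals overlapped (67.8 (56.98 to 80.1) against 54.9 (42 to 70.5) CPM). Cluster 7, led by Arg1, Saa3, Ccl24 and Fn1, had the highest Itgam (888 CPM), Itgb2 (553 CPM) and Icam2 (21.3 CPM, apart from cluster 22 of 44 liver cells at 23.5) of the macrophage-like clusters, and a low Itgax (26.3 CPM). It also held 43 of the 53 Selp UMIs of macrophage-like cells in the pancreas library and 35 of the 54 in the liver library. Of the macrophage-like clusters, cluster 9 had the highest Itgax, at 243 CPM. Cluster 16, with 2 epithelial markers among its 10 leading genes, was lowest for Itgam and Itgb2.

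**Figure D5:**
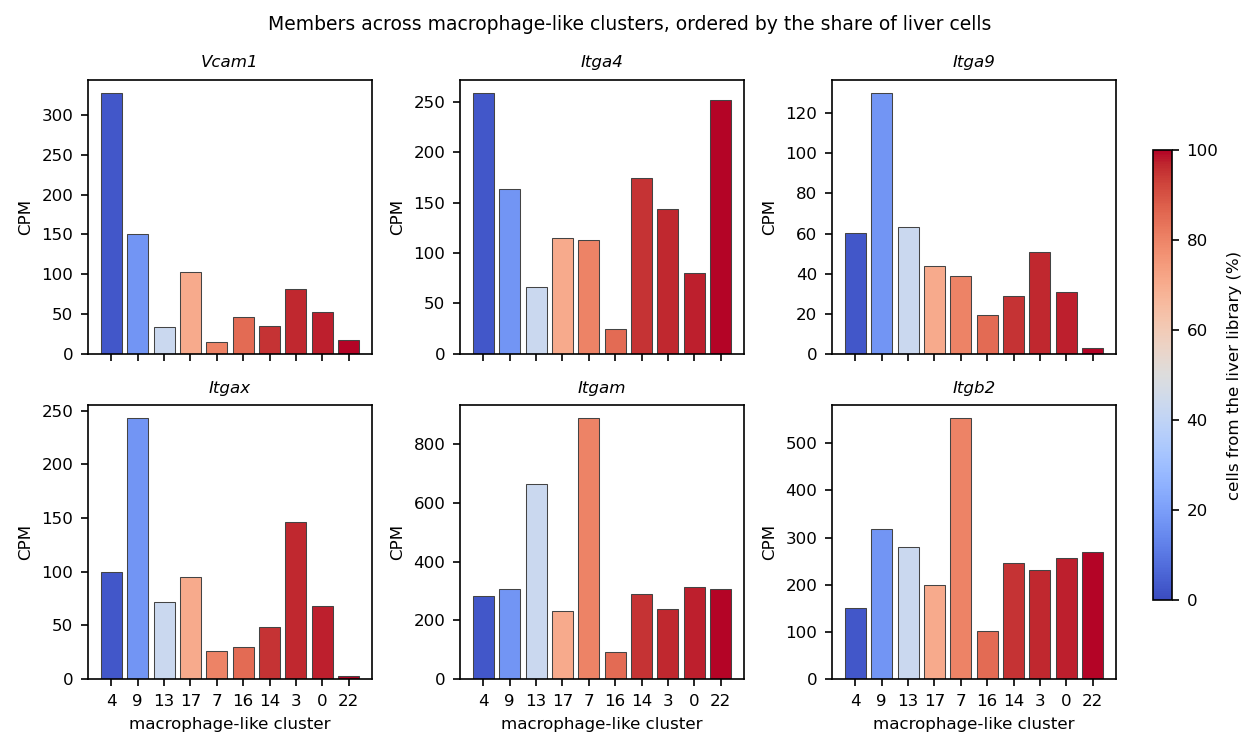
The CPM of 6 members in each of 10 macrophage-like clusters, summed over both libraries, ordered and colored by the percentage of their cells from the liver library. Vcam1 is highest in cluster 4 (2.40% liver cells), Itga9 and Itgax in cluster 9 (17.5%), and Itgam and Itgb2 in cluster 7 (80.1%).

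Icam1 in dendritic-like cells was 3.66-fold higher in the liver library (37.9 against 139 CPM), from 64 and 149 UMIs, and within the cluster led by Xcr1 it stood at 37.6 (28.7 to 48.3) against 96.7 (76.5 to 121) CPM. In neutrophil-like cells it was 2.12-fold lower (137 against 64.6 CPM). Cluster 19, a neutrophil-like cluster led by Cxcl2, G0s2 and Ccl3, had 177 CPM of Icam1 and 66 of its 78 cells came from the pancreas library. Within cluster 5, the other one, Icam1 stood at 119 (90.2 to 154) against 63.5 (49.6 to 80.1) CPM. Icam1 and its receptor chain were found in the same classes: the 4 leukocyte classes of both libraries had Icam1 at 37.2 to 139 CPM beside Itgb2 at 145 to 280.2 CPM.

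For 22 of the 25 members with 20 UMIs in both libraries, the class with the highest level was the same in both: T cell-like for 6, epithelial-like for 5, macrophage-like for 5, dendritic-like for 4 and neutrophil-like for 2. In 11 of the 22 the interval of the highest class was apart from those of the other 4 classes in both libraries: Itga2, Itga3, Itga6 and Itgb4 (epithelial-like), Itga9, Itgb5 and Vcam1 (macrophage-like), Itgae and Itgb7 (dendritic-like), Itgav (T cell-like) and Selplg (neutrophil-like). The other 11 overlapped another class in at least 1 library. The bulk calls by that class are given as counts, without a test. Over all tested genes, of whatever class, 16.7% were called higher and 6.26% lower. The shares over all genes highest in the same class were not computed, so the counts are not read as particular to the members. Of the 5 members highest in epithelial-like cells, 0 rose and 3 fell in the liver tumors. Of the 4 highest in dendritic-like cells (Itgae, Itgax, Itgb7 and the sparse Itga8) 4 rose. Of the 6 highest in T cell-like cells 3 rose, among them Icam2 (9.29 and 11.7 CPM, beside 4.80 and 11.1 in macrophage-like cells, pancreas and liver). Of the 5 highest in macrophage-like cells 2 rose, and of the 2 highest in neutrophil-like cells 1 rose. The class with the highest level need not hold most UMIs of a gene. Macrophage-like cells, the larger class, held more UMIs of Itgax, Itgb7 and Itga8 than dendritic-like cells in both libraries. Among the 11 that were apart, 0 of 4 rose and 3 fell for epithelial-like, 2 of 2 rose for dendritic-like, 1 of 3 for macrophage-like, 0 of 1 for T cell-like and 1 of 1 for neutrophil-like cells. Within the libraries, none of Itgal, Itgae, Itgax, Itga4 or Itgb7 was 2-fold higher per class in the liver library in the class where it was highest.

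Genes that act with the members were taken from lists of ligands and partners. The counts of each list stand beside 16.7% higher and 6.26% lower over all tested genes, and no list was tested. Of 19 tested laminin and basement membrane genes 2 rose and 1 fell, with a median log2 change of -0.31: Lama1 at 2.94 (SE 0.53) and Lama2 at 1.71 (SE 0.34), against Lamb2 at -0.96 (SE 0.22). Of 10 fibrillar collagen genes 2 rose (median 1.08), Col3a1 at 1.43 (SE 0.41) and Col6a3 at 1.54 (SE 0.46). Of 22 genes for ligands of the fibronectin and vitronectin kind 5 rose and 1 fell (median -0.09). Among those that rose, the fibrinogen chains Fga, Fgb and Fgg, made by hepatocytes, went from at most 1.34 CPM in any pancreas tumor to at least 3937 CPM in any liver tumor, and Vtn, also made by hepatocytes, rose by 9.79 (SE 0.90). Mfge8, a secreted ligand of alpha-v integrins, stood at 382, 600.4 and 395 against 170.1, 139 and 186 CPM (log2 change -1.47, SE 0.26, edgeR adjusted p = 0.0046). Of 9 other cell-surface ligands Jam2 rose (log2 change 1.70, SE 0.34) and Adam15 fell (log2 change -1.07, SE 0.27), with a median of -0.34.

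On the selectin side 3 of 19 genes rose and 4 fell (median -0.40). Tpst1, which sulfates tyrosines of P-selectin ligand, rose by 1.08 (SE 0.26) on the log2 scale, and Chst2, a sulfotransferase of selectin ligands, by 1.01 (SE 0.30). Cd24a, a mucin-like P-selectin ligand, stood at 646, 640 and 643 against 211, 232 and 287 CPM (log2 change -1.40, SE 0.22, edgeR adjusted p = 0.00249), and Podxl, Chst4 and Muc1 also fell, with log2 changes of -1.04 (SE 0.26), -0.96 (SE 0.23) and -2.28 (SE 0.70). Of 30 genes of integrin activation and focal adhesions 4 rose and 2 fell (median -0.07), near the 16.7% and 6.26% over all tested genes. Rasgrp2, the exchange factor that switches on Rap1 upstream of integrins in leukocytes and platelets, stood at 3.47, 2.15 and 3.46 against 23.2, 18.1 and 12.1 CPM (log2 change 2.55, SE 0.34, edgeR adjusted p = 0.00109). Fermt2, the kindlin of stromal cells, rose (log2 change 1.14, SE 0.19) and Fermt1, the kindlin of epithelia, fell (log2 change -1.03, SE 0.23), as did the kinase gene Src (log2 change -1.02, SE 0.25). Parvg and Apbb1ip (the Rap1 effector RIAM), both of leukocytes, rose by 1.10 (SE 0.26) and 1.09 (SE 0.31).

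Strand of the bulk counting is not given in the sources used here. Itga4 shares 8.04% of its exon bases with Cerkl on the opposite strand, and Icam1, Itga8, Itgav, Itgb4 and Selp share 5.05% to 11.7% with noncoding genes on the opposite strand, so reads of these parts cannot be told apart. Itga10 shares 33.5% with the gene model Gm42957 on the same strand.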

How the data were processed

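The members and the gene lists were chosen with earlier results of these data known. The raw read counts per gene symbol were deposited by the authors, as were a normalized signal (each count divided by 1 factor per library, not used for tests) and FPKM; how the bulk reads were aligned and counted is not given in the sources used here. UMI counts of all barcodes were deposited by the authors, with software version 3.0.0 per the file headers; Cell Ranger, bcl2fastq and mm10 come from the submitters' processing notes. The bulk test, over all genes that passed filterByExpr, was edgeR's (version 4.0.16, R 4.3.3): a robust quasi-likelihood fit on site alone with TMM scaling, two-sided, with p-values adjusted by Benjamini-Hochberg and called under 0.05. CPM use TMM-scaled totals. A check on simulated counts, with means and dispersions taken from this fit, ran after it.

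Cells had at least 1500 UMIs, 200 genes and at most 10% mitochondrial UMIs. Scrublet's automatic limit marked 5 of 2277 and 1 of 7618 barcodes, so a score limit of 0.3, chosen after that, was used and removed 17 and 85. Cells of both libraries were clustered together in scanpy 1.11.5 (2000 variable genes without the 32 members, 30 components, 15 neighbors, Leiden resolution 1, Python 3.11.15). A cluster was named from at least 3 markers over 2-fold above the lower quartile of clusters. This rule was set after a first rule had left macrophage clusters unnamed; names are rebuilt and may differ from the study's. UMIs were summed per class and library, with exact Poisson intervals at 95%. A count of 0 allows 3, and bounds use 3 UMIs per class and library. Named genes were all members and, from each list of partners, up to 4 called genes per direction by p-value with a mean of at least 1 CPM; 1 gene that this rule names is not reported here. Alternatives were other scalings, DESeq2 1.42.0, limma 3.58.1, other filters, a replicate block, each library left out, and other limits for cells. Positions and exons are GENCODE M21's (GRCm38), promoters RefSeq's.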

Additional observations from a re-analysis of the deposited data

How the results depend on the processing

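Of the 15 called members, 14 kept the call in all fits on the 6 libraries that were planned (median-of-ratios factors, DESeq2, limma-voom, limma on log2 of FPKM plus 1 or plus 0.1, no filter, a 5 CPM filter, replicate block), leaving aside the members that the 5 CPM filter removed; the exception was Icam2. Without each library in turn, 7 of the 15 kept it: Itga8, Itga9, Itgae, Itgal, Itgax, Itgb2 and Selp. Over all genes, 2755 were higher and 1032 lower, against 1810 and 134 without liver replicate 2 and 2110 and 4646 with plain library totals. The count of members higher was 12 and ran from 7 to 13 over the libraries left out; the count lower was 3 and ran from 0 to 5. Partner genes higher numbered 17 (10 to 20) and lower 9 (2 to 12; 16 in DESeq2). Plain library totals, chosen after seeing the data, moved the median of all genes by -0.45, gave 9 members lower, 11 partner genes higher and 34 lower, ended the calls of Itgax, Itgb7, Icam2 and Selplg, and reversed Itga7 (-0.25), Itga10 (-0.48), Itgam (-0.16), Itgb8 (-0.039) and Icam1 (-0.28). DESeq2 and the fit without a filter also called Itgb3 lower. Itga10, not called, also reversed in limma-voom (-0.048), with no filter (-0.038) and with the replicate block (-0.0023). Without single libraries Itga10 ran from -0.38 to 0.23 and Icam1 from -0.042 (without pancreas replicate 3) to 0.42. Between libraries of the same replicate number, the correlations of deviations were -0.18, 0.25 and 0.09. Libraries of unlike numbers were not set beside them, so they do not decide whether the numbers pair the libraries. The replicate block gave 12 members higher and 3 lower: Itga1 gained a call and Icam2 lost it. The causes of these changes were not tested. Among cells, the members with the same highest class numbered 22 and ranged from 18 to 22 over 5 alternatives, and the pairs past the limit 51 (41 to 53). At a minimum of 3000 UMIs, 4 classes kept 50 cells in both libraries. Depth limits Itgad, Itga11, Sele and Selp in cells, where most classes hold fewer than 20 UMIs.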
